A study of Mus musculus with 4 samples.

Results

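The fibroblast growth factor (FGF) genes examined were the ligands Fgf9, Fgf18, Fgf20 and Fgf22 and the receptors Fgfr1, Fgfr2 and Fgfr3, chosen as all probe sets that the array annotation pairs with exactly 1 of these genes. This gave 14 probe sets, groups of short probes that each read a transcript, for 7 genes, out of 34945 probe sets naming 1 gene and 18193 genes on the array. Transcript levels were measured on Affymetrix mouse arrays in epidermis of embryos at stage E15.5, separated from the dermis of back skin with dispase. The 2 mutant embryos were KRT14-Cre Ctnnb1(Ex3)fl/+, in which Cre recombinase under a keratin 14 promoter removes exon 3 from 1 allele of beta-catenin, the effector of canonical Wnt signalling, so that the protein escapes destruction, and the 2 controls were littermates, whose own alleles are not given in the sources used here. Each array held RNA of 1 embryo. KRT14-Cre acts in keratin 14-expressing cells, and the arrays read the whole epidermal sheet.

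FGF ligands are secreted proteins that bind receptor tyrosine kinases together with heparan sulphate chains, and the receptors signal through the adaptor Frs2 and the RAS-ERK kinases. In skin, epithelial FGF ligands signal to the dermis below, where Fgfr1 is widely used. Keratinocytes carry the IIIb splice form of Fgfr2 and receive Fgf7 and Fgf10, which are made largely by the dermis. Fgf20 is made by the hair placode, the epithelial thickening that begins a follicle, and signals to the dermal cells that gather under it.

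In mutant epidermis Fgf9, Fgf20, Fgf22 and Fgfr1 were higher than in control littermates, by 4.41-fold to 7.60-fold for the probe set with the highest mean signal of each gene. Fgfr2 and Fgfr3 moved less, and their lower values in the mutant passed the test on only some probe sets (1.33-fold and 1.46-fold). Fgf18 was near the bottom of the signal range on all 4 arrays. Of the 14 probe sets 7 were called higher in the mutant, 2 lower, 4 did not pass and 1 was too dim to test; a call is an adjusted p under 0.05 from limma, a linear model whose spread is pooled over all probe sets, with Benjamini-Hochberg adjustment. These counts stand against a wide background, since 39.4% of all 28434 tested probe sets were called, 18.9% higher and 20.5% lower. The signals of the 2 groups did not overlap on 12 of the 13 tested FGF probe sets, against 71.7% of all tested probe sets. Fgf9 1438718_at and Fgf22 1450205_at were tested only because their signals in the mutants were bright enough. Their part in the 12 supports nothing by itself.

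**Figure D1:**
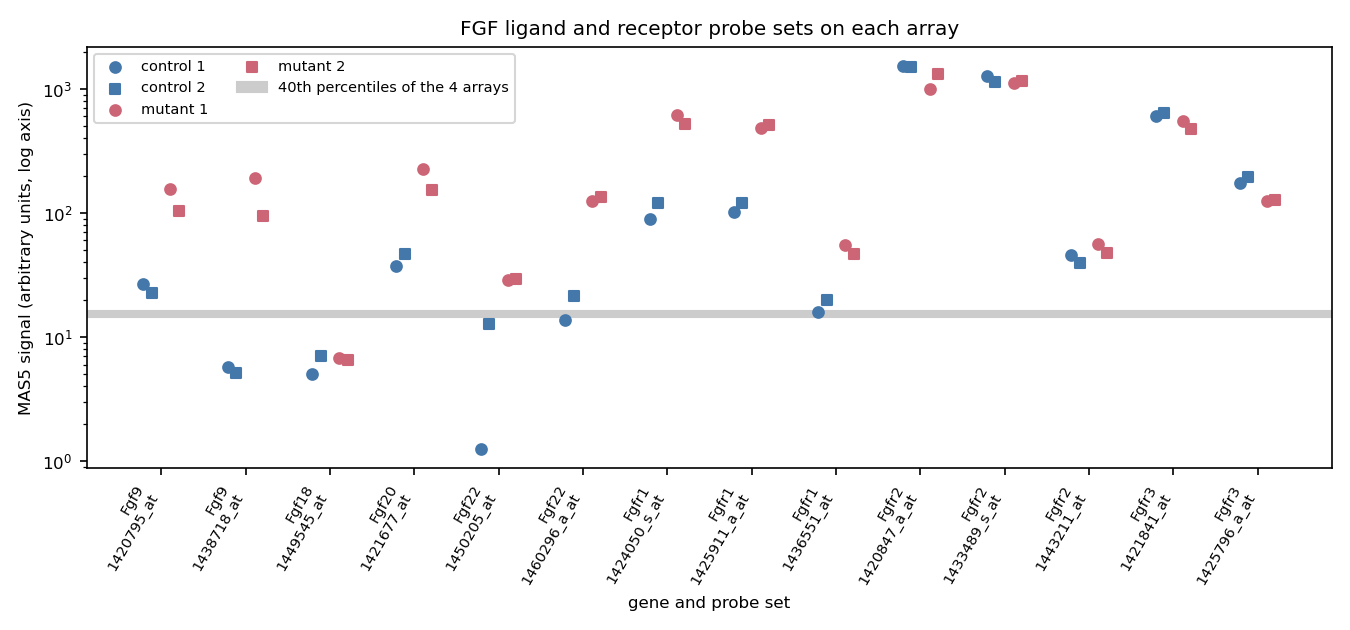
MAS5 signal (arbitrary units, log axis) of the 14 probe sets of FGF ligands and receptors on each of the 4 arrays, with controls in blue, mutants in red, circles for sample 1 and squares for sample 2. The grey band spans the 40th percentiles of the 4 arrays (14.4 to 16.1), and the mutant points of Fgf9, Fgf20, Fgf22 and Fgfr1 lie above the control points, whereas all 4 points of Fgf18 lie under the band.

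The arrays were alike in overall signal, with medians of 26.7 to 30.1 and a trimmed mean of 150 on each. Log2 signals correlated at 0.972 between controls, 0.970 between mutants and 0.813 to 0.815 between groups, over probe sets, which are not independent replicates. A signal at or under the 40th percentile of its array was taken as not above background. With 2 arrays against 2, an exact permutation test cannot give a two-sided p below 0.333, so each call rests on the spread that limma pools over probe sets.

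Fgf9 encodes a secreted ligand of the subfamily that also holds Fgf20. On probe set 1420795_at its signal was 26.8 in control 1, 22.6 in control 2, 155 in mutant 1 and 104 in mutant 2. The lower mutant value was above the higher control value, and both controls lay above their 40th percentiles. The log2 signal rose by 2.37 ± 0.26 (SE, n = 2 per group; limma adjusted p = 2.75e-04), or 5.16-fold.

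A further probe set of Fgf9, 1438718_at, had signals of 5.78 and 5.17 in the controls and of 192 and 93.9 in the mutants. Both controls were below background there, so the gene was at least 9.27-fold higher in the mutant on this probe set (limma adjusted p = 9.04e-05), against a measured mean of 5.48 in controls and 143 in mutants. This probe set passed the filter on dim signals only through the mutants, so its place among the 7 higher calls supports nothing by itself. The mutant arrays also differed from each other, and on both Fgf9 probe sets mutant 1 was the higher.

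The 250 bases before the annotated start of Fgf9 and of Fgf22 are shown because these ligands rose together and a motif was looked for there; they are RefSeq sequences of build GRCm38.p6, both on the plus strand, and are in lower case throughout because no match was found.
Fgf9, chr14:58072436-58072685: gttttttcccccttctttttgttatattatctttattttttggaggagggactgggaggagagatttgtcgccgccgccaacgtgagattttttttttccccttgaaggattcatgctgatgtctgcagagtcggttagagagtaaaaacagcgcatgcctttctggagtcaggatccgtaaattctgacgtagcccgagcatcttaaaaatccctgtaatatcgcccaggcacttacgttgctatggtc
Fgf22, chr10:79754859-79755108: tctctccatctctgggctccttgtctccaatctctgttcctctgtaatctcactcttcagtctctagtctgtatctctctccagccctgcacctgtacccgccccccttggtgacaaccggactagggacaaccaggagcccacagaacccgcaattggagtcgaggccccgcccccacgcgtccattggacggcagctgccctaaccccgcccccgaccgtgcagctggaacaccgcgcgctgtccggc
The Fgf9 sequence has a GC content of 44.8% with 11 CG dinucleotides, and that of Fgf22 62.4% with 15. The letters CTTTGA, the core at which TCF and LEF partners of beta-catenin bind, were searched on both strands from 250 bases before to 50 bases after the start. They stood in none of the 6 windows of the 5 genes for which a window was at hand (Fgf9, Fgf18, Fgf22, Fgfr2 and Fgfr3), and in 16% of all 32851 windows. The absence of these letters says nothing on binding outside the window or at other letters.

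Fgf20, the placode ligand, is read by 1 probe set, 1421677_at. Its signal was 37.7 and 46.6 in the controls and 225 and 152 in the mutants. Both mutants were above both controls and all 4 signals were above background. The rise in log2 signal was 2.14 ± 0.23 (SE, n = 2 per group; limma adjusted p = 2.75e-04), or 4.41-fold. As for Fgf9, the signal was higher in mutant 1 than in mutant 2.

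Fgf22, of the subfamily of Fgf7 and Fgf10, is read by a pair of probe sets. On 1460296_a_at the signal was 13.6 and 21.3 in the controls and 125 and 134 in the mutants. Control 1 lay below its 40th percentile and control 2 above it, so the size of the fold is uncertain. The log2 signal rose by 2.93 ± 0.27 (SE, n = 2 per group; limma adjusted p = 1.33e-04), or 7.60-fold.

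The other probe set of Fgf22, 1450205_at, had a signal of 1.25 on the first control array and 12.7 on the second, and 28.7 and 29.4 on the mutant arrays. Both controls were below background, and the mutants were at least 2.00-fold higher. This set, too, passed the filter on dim signals only through the mutants. The measured difference was 2.87 ± 1.02 on the log2 scale and did not pass (limma adjusted p = 0.0583). The controls differed from each other about as much as the groups did, and without control 1 the difference was 1.20, against 4.54 without control 2.

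Fgf18, a ligand of the subfamily of Fgf8 and Fgf17, had signals of 5.04 and 7.01 in the controls and 6.76 and 6.55 in the mutants on 1449545_at. No array was above background, the groups overlapped, and the probe set was not tested. Without the filter on dim signals its difference was 0.16 ± 0.72 on the log2 scale (limma adjusted p = 0.911). A difference in Fgf18 was not detectable at this signal, which does not show that the gene is silent.

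Fgfr1, the receptor known chiefly from dermal cells in skin, rose on each of its 3 probe sets. On 1424050_s_at the signal was 89.1 and 119 in the controls and 612 and 521 in the mutants. The log2 signal rose by 2.45 ± 0.17 (SE, n = 2 per group; limma adjusted p = 2.71e-05), or 5.48-fold. Probes of a set whose name ends in _s_at can match more than 1 transcript, so this value alone could hold signal of another one.

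The other sets of Fgfr1 moved the same way. On 1425911_a_at the signal was 102 and 119 in the controls and 484 and 512 in the mutants, a rise of 2.17 ± 0.13 (limma adjusted p = 1.38e-05). On 1436551_at it was 15.9 and 19.8 in the controls, close to the 40th percentiles, and 55.5 and 46.6 in the mutants, a rise of 1.52 ± 0.30 (limma adjusted p = 5.56e-03). On each of the 3 sets both mutants were above both controls. The annotation does not tell the IIIb and IIIc splice forms of the receptors apart, so the form of Fgfr1 that rose was not measured.

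Fgfr2, the FGF receptor of keratinocytes, was well above background on its 3 probe sets, which did not move together. On 1420847_a_at the signal was 1526 and 1511 in the controls and 996 and 1312 in the mutants. The log2 signal fell by 0.41 ± 0.13 (SE, n = 2 per group; limma adjusted p = 0.0406), or 1.33-fold. The controls lay close together and the mutants apart, and the call was lost without control 1 (adjusted p = 0.128), without control 2 (0.113) and without mutant 1 (0.172), where the difference was -0.21.

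The remaining Fgfr2 sets gave no call. On 1433489_s_at the signal was 1268 and 1143 in the controls and 1107 and 1159 in the mutants, so that the groups overlapped, with a difference of -0.09 ± 0.09 (limma adjusted p = 0.497; 95% interval -0.31 to 0.13). On 1443211_at it was 45.5 and 39.3 in the controls and 56.1 and 47.5 in the mutants, a difference of 0.29 ± 0.23 in the opposite direction (limma adjusted p = 0.366; 95% interval -0.26 to 0.83). Averaged over the 3 sets the difference was -0.07 ± 0.09 (limma adjusted p = 0.568). Whether the probe sets of Fgfr2 differed from each other was not tested.

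Fgfr3, a receptor of epidermis and growing cartilage, was somewhat lower in the mutant. On 1421841_at the signal was 606 and 645 in the controls and 546 and 472 in the mutants, a difference of -0.30 ± 0.11 that did not pass among probe sets (limma adjusted p = 0.0659). It was -0.41 and passed without mutant 1 (limma adjusted p = 0.0416) and with median centring (limma adjusted p = 0.0194), and was -0.19 without mutant 2 (limma adjusted p = 0.278). On 1425796_a_at it was 175 and 193 in the controls and 126 and 127 in the mutants. There the log2 signal fell by 0.55 ± 0.14 (limma adjusted p = 0.0157), or 1.46-fold, a call lost without control 2 (adjusted p = 0.0888). The authors' deposited table describes the sequence behind 1425796_a_at as an Fgfr3 isoform that lacks the acid box, a short stretch of the extracellular part, but whether the probes read that form alone was not tested.

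**Figure D2:**
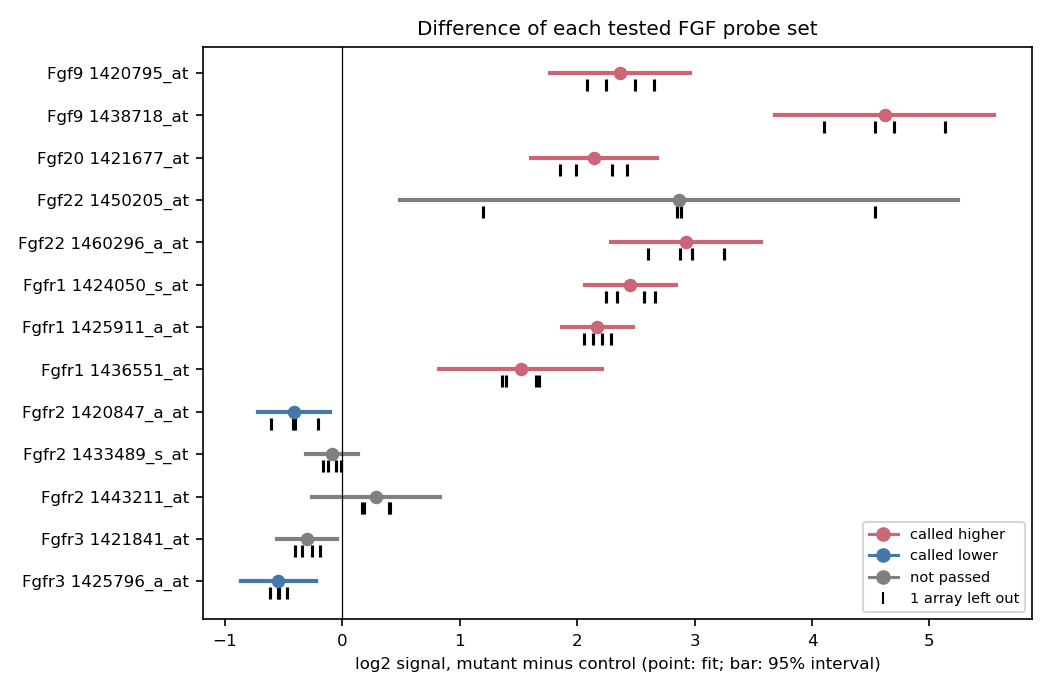
Difference in log2 signal, mutant minus control, for the 13 tested probe sets, with the limma estimate as a point, its 95% interval as a bar and black ticks for the 4 fits that each leave out 1 array. The 3 Fgfr1 sets lie between 1.52 and 2.45, the Fgfr2 sets between -0.41 and 0.29 on both sides of 0, and the ticks of Fgf22 1450205_at run from 1.20 to 4.54.

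With 1 probe set standing for each gene, the one with the highest mean signal, 4 of the 6 genes with a tested probe set were called higher (Fgf9, Fgf20, Fgf22 and Fgfr1) and 2 lower (Fgfr2 and Fgfr3). Over all 12469 genes in that fit 47.5% were called, 21.7% higher and 25.8% lower. The lower calls were marginal, with limma adjusted p of 0.0298 for Fgfr2 and 0.0496 for Fgfr3. Among all genes 5.25% were called and at least 4-fold higher, which holds for each of the 4 higher members. The median absolute difference over all genes was 0.45 on the log2 scale, and Fgfr2 and Fgfr3 lay under it on these brightest probe sets. On its other set, 1425796_a_at, Fgfr3 fell by 0.55, more than the median absolute difference over all probe sets (0.45).

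The authors' deposited table holds ratios made from the same arrays with GCRMA, another way of turning probe brightness into an expression value, for 6296 probe sets that differed at least 2-fold. Of the 14 FGF probe sets 7 stand in it, as do 14% of all probe sets on the array. In the authors' deposited table Fgf9 was 21.3-fold higher in the mutant on 1420795_at, against 5.24-fold from the mean MAS5 signals. On 1438718_at it was 36.9-fold higher in the authors' deposited table, whereas the MAS5 signals, below background in both controls, give only the bound of 9.27-fold. For Fgf22 1460296_a_at the authors' deposited table gives 14.8-fold and the MAS5 means 7.42-fold, and for Fgf20 the values were 5.35-fold and 4.48-fold. Fgfr1 was 9.52-fold and 6.25-fold higher in the authors' deposited table on 1424050_s_at and 1425911_a_at, against 5.44-fold and 4.50-fold. The only FGF probe set lower in the mutant in the authors' deposited table was Fgfr3 1425796_a_at, with control over mutant at 2.22-fold. The direction was the same in both tables for each of the 7. Fgfr1 1436551_at, with MAS5 means 2.86-fold higher in the mutant, is not among the probe sets it lists. The table lists only sets that GCRMA put at 2-fold or more, so these pairs of values do not compare the sizes that the 2 methods give in general, and the arrays are the same.

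**Figure D3:**
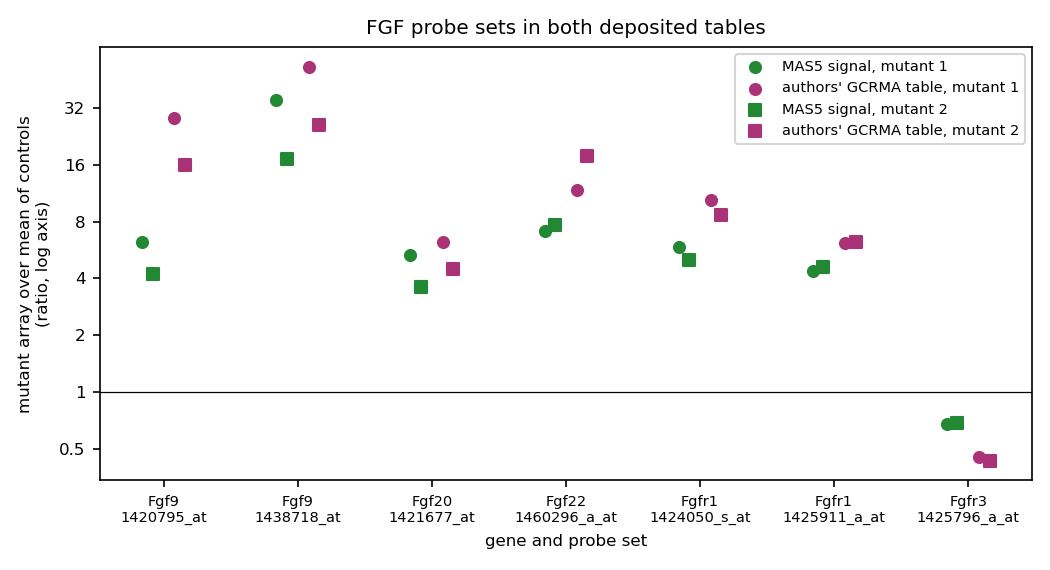
Ratio of each mutant array to the mean of the controls (log axis) for the 7 FGF probe sets in both deposited tables, from MAS5 signal (green) and from the authors' GCRMA ratios (purple), with circles for mutant 1 and squares for mutant 2. On Fgf9 1420795_at the GCRMA ratio of mutant 1 was 28.4 and its MAS5 ratio 6.27, and Fgfr3 1425796_a_at is under 1 in both; on Fgf9 1438718_at both controls were below MAS5 background, so its MAS5 points have no firm size.

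Among the other FGF ligands few were above background. Of 18 genes 5 had a tested probe set, and 1 was called higher, 1 lower and 3 did not pass. The shares of all genes called were 21.7% higher and 25.8% lower. Fgf13, an FGF-like protein that stays inside the cell and acts on sodium channels, had signals of 35.1 and 27.98 in the controls and 206 and 165 in the mutants, a rise of 2.56 ± 0.21 (limma adjusted p = 3.14e-05). Fgf11, of the same intracellular group, was at 103 and 134 in the controls and 77.9 and 62.9 in the mutants. It changed by -0.74 ± 0.20 (limma adjusted p = 0.0173), a call lost without the intensity trend, without control 2 and without mutant 2. Fgf7 and Fgf10, the dermal ligands of Fgfr2 IIIb, were below background on all 4 arrays, with 8.76 and 7.93 for Fgf7 and 1.09 and 0.87 for Fgf10 in the controls.

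The remaining receptors, co-receptors and FGF-binding proteins gave more falls than rises. Of 8 tested genes 4 were called lower, 1 higher and 3 did not pass, against 25.8% of all genes called lower and 21.7% higher. The median of the 8 was -1.28, or -0.76 with 1 gene at its bound, against -0.06 over all genes. Fgfbp1, a secreted protein that releases FGFs from the matrix, had 2298 and 2377 in the controls and 778 and 786 in the mutants, a fall of -1.58 ± 0.08 (limma adjusted p = 2.30e-06). Flrt1, a transmembrane protein that binds FGF receptors, was at 368 and 375 in the controls and 53.5 and 35.0 in the mutants, a fall of -3.10 ± 0.21. The co-receptor Kl, below background in both mutants, was at least 1.14-fold lower (limma adjusted p = 0.0438 over genes and 0.0524 over probe sets). It passed the filter on dim signals only through the controls, so its call supports nothing by itself. Fgfbp3 fell by 1.14 ± 0.24, and Fgfrl1, a receptor without a kinase domain, rose by 0.99 ± 0.17, from 54.4 and 57.0 to 109 and 112.

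Proteoglycans that present FGFs to their receptors changed in both directions. Over all genes 21.7% were called higher and 25.8% lower. Of 16 tested genes of heparan sulphate proteoglycans and their enzymes 6 were called higher, 5 lower and 5 did not pass, with a median of 0.07. The lower calls were 3 without control 1, without control 2, without mutant 1 and without the filter on dim signals. The glypican Gpc1 rose by 2.51 ± 0.11 (limma adjusted p = 9.39e-07), from 175 and 154 to 941 and 923, and the syndecan Sdc2 by 1.95 ± 0.15, though 1 of its further probe sets had 0.92 ± 0.51 and did not pass. Gpc4 rose by 0.88 ± 0.10. Ext1, an enzyme that builds the heparan sulphate chain, fell by 1.20 ± 0.10, from 728 and 755 to 333 and 311, while another of its probe sets had 0.17 ± 0.34 and did not pass.

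Genes of feedback and response to FGF and ERK signalling were mostly higher. Of 14 tested genes 12 were called higher and 2 lower, with a median of 1.12. Of all genes 21.7% were called higher and 25.8% lower. Among the 12, Spred3 was below background in both controls and passed the filter on dim signals only through the mutants, so its call supports nothing by itself. Spry1, an intracellular inhibitor that FGF signalling induces, had 214 and 241 in the controls and 582 and 514 in the mutants, a rise of 1.27 ± 0.12 (limma adjusted p = 6.61e-05). Etv4, a transcription factor that FGF signalling induces, was at 41.3 and 63.3 in the controls and 414 and 295 in the mutants, a rise of 2.77 ± 0.24, while another of its probe sets had 1.20 ± 0.42 and did not pass (limma adjusted p = 0.0549). Dusp6, a phosphatase that switches off ERK, rose by 1.14 ± 0.10, from 673 and 795 to 1666 and 1553. Fos, an immediate early gene of ERK signalling, moved the other way, with 2774 and 3709 in the controls and 727 and 744 in the mutants, a fall of -2.12 ± 0.13 (limma adjusted p = 6.77e-06). Egr1 was the other gene called lower (-0.82 ± 0.24), from 1269 and 2287 to 883 and 1061; with 1 array left out, 1 or 2 genes of this group were called lower and 10 to 12 higher.

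Adaptors and kinases of the RAS-ERK chain changed in both directions. Of 11 tested genes 3 were called higher, 2 lower and 6 did not pass, with a median of 0.24. Over all genes 47.5% were called, 21.7% higher and 25.8% lower. Braf, a kinase that activates the ERK cascade, rose by 1.60 ± 0.10 (limma adjusted p = 5.75e-06), from 256 and 267 to 781 and 803, and Nras, a membrane switch upstream of it, fell by 0.51 ± 0.09. The docking protein Gab1 fell by 1.41 ± 0.10 (limma adjusted p = 1.45e-05), from 660 and 702 to 253 and 261. Ptpn11, the phosphatase that carries the signal from Frs2 and Gab1, rose by 0.46 ± 0.09, though 1 of its further probe sets had -0.27 ± 0.33 and did not pass. Of the splicing regulators, Esrp1 and Esrp2, which favour the IIIb forms of the receptors, fell by 0.37 ± 0.08 and 0.28 ± 0.08, and Ptbp1 by 0.23 ± 0.08. For Ptbp1 the limma adjusted p was 0.0484 over genes and 0.0623 over probe sets. Its further probe sets had 0.12 ± 0.15 and -0.10 ± 0.32, another Esrp2 set had -0.36 ± 0.25, and none of these passed. The lower calls numbered 1 without control 1, 1 without control 2 and 0 without the intensity trend.

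**Figure D4:**
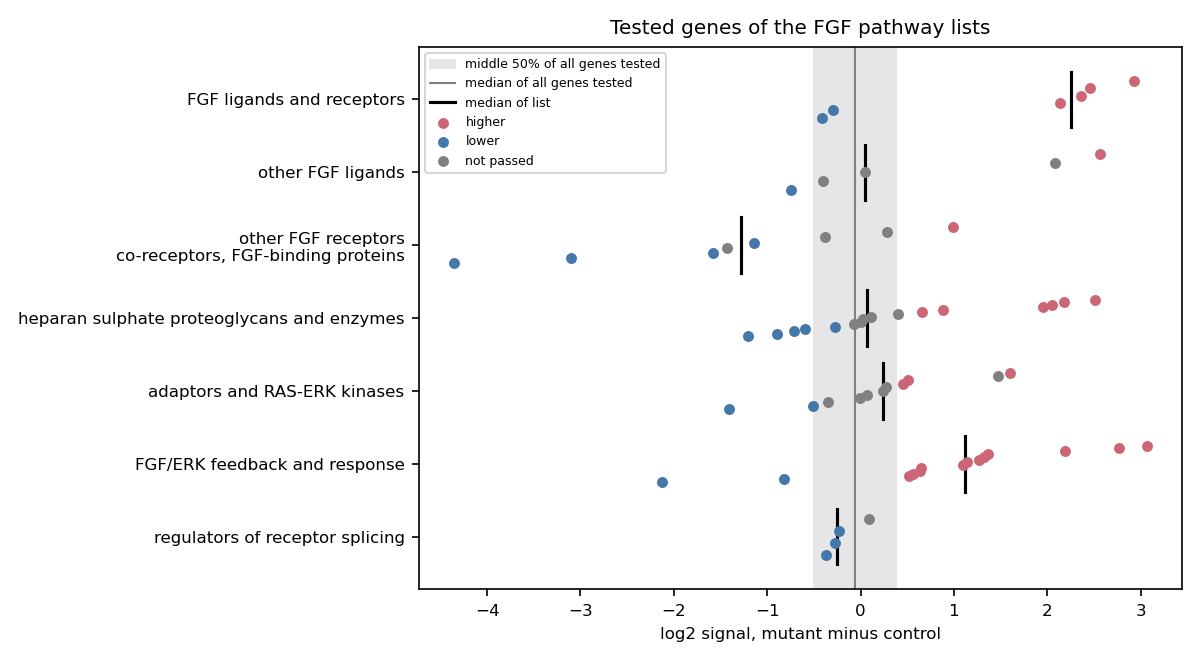
Difference in log2 signal, mutant minus control, of each tested gene (points) in the FGF ligands and receptors and in 6 lists of other pathway genes, coloured by call, with a black bar at each list's median; genes below background in a group stand at their fitted value. The grey band holds the middle 50% of all 12469 genes and the grey line their median, -0.06; the FGF/ERK feedback list has its median at 1.12.

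Over the 6 lists together 58 genes were tested, 23 were called higher, 17 lower and 18 did not pass, so that 69% were called, against 47.5% of all genes. Of 34 pathway genes with at least 2 tested probe sets, none had probe sets called in opposite directions. The lists were chosen with earlier results of these arrays known, so their counts are descriptions.

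Markers of the cells in the sheet were read on the same arrays. For comparison, 21.7% of all genes were called higher and 25.8% lower. Of 9 tested epidermal markers 6 were lower, 1 higher and 2 did not pass. Their summed signal was 50890 and 51705 in the controls and 26021 and 28749 in the mutants. The basal keratin Krt5 (-0.15 ± 0.09) and the epidermal transcription factor Trp63 (-0.04 ± 0.09) did not pass. The keratins Krt14 (-0.35 ± 0.10) and Krt15 (-1.03 ± 0.08) were called lower. The suprabasal keratins Krt1 (-3.98 ± 0.12) and Krt10 (-3.57 ± 0.11) were lower by more. Perp (-0.42 ± 0.09) and Cdh1 (-0.71 ± 0.08) were also lower, and Sfn was higher (0.55 ± 0.12). In such bulk tissue fewer cells of a type and less RNA per cell cannot be told apart, and the part of this shift in the Fgfr2 and Fgfr3 values was not tested.

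Dermal fibroblast markers were read because Fgfr1 is known from dermal cells. Of 9 tested 4 were lower, 1 (Dcn) higher and 4 did not pass, against 25.8% of all genes called lower and 21.7% higher. Among the lower ones, Col6a3 was below background in both mutants. It passed the filter on dim signals only through the controls, so its call supports nothing by itself. The summed signal of the 9 markers was 7044 and 8561 in the controls and 3682 and 4156 in the mutants. Most of it came from Dcn and, in the controls, Postn. Postn went from 3590 and 4302 to 11.3 and 29.6, about as much as the fall of the sum. Dcn rose by 0.30 ± 0.08 (limma adjusted p = 0.0158). Of the defining genes, Twist1 and Pdgfra were below background on all 4 arrays, and Twist2 was above it only in control 2 (22.6). Col1a1 was 1.84 and 107 in the controls and 6.65 and 63.2 in the mutants, so control 2 and mutant 2 carried more of it than control 1 and mutant 1. Col3a1 was 22.9 and 381 in the controls, but 26.6 and 27.7 in the mutants. Fgfr1 on 1424050_s_at was 89.1 and 119 in the controls and 612 and 521 in the mutants. The rise of Fgfr1 on that set was 2.24 without control 1 and 2.66 without control 2. It was 2.34 without mutant 1 and 2.57 without mutant 2. The part of dermal cells in the Fgfr1 values was not tested.

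Markers of other cell types were read as well, beside the 21.7% of all genes called higher and 25.8% lower. The 8 melanocyte markers were all called higher, with a summed signal of 1668 and 1675 in the controls and 5189 and 6313 in the mutants. Of 10 dermal condensate and papilla markers 3 were tested and called higher (Prdm1, Crabp1 and Vcan), and Sox2, Tbx18, Rspo3, Corin and Hhip were below background on all 4 arrays. The neuronal tubulin Tubb3 rose by 5.23 ± 0.20. Of 4 Merkel cell markers Piezo2 was at least 9.02-fold higher, Atoh1 (-0.53 ± 0.52) did not pass and Krt20 and Isl1 were not tested. Piezo2, and Tyrp1 among the melanocyte markers, were below background in both controls. Both passed the filter on dim signals only through the mutants, so their calls support nothing by themselves. The only tested endothelial marker, Kdr, and the 2 tested immune markers, Cd74 and Csf1r, did not pass, and no skeletal muscle marker had a tested probe set. The part of these cells in the FGF values was not tested.

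The genes whose signals followed the members most closely over the 4 arrays were sought among 12468 other genes, by the smallest root mean square difference of centred log2 signals. The closest was Abcc9 for Fgfr1 (0.0182), Grik2 for Fgf9 (0.0479), Klk7 for Fgf20 (0.0827) and Atg9b for Fgf22 (0.0607). Within 0.2 of Fgfr2 and Fgfr3 there were 2223 and 3522 genes, against 24 to 60 for the 4 members that rose, so that likeness over 4 arrays singles out no gene for Fgfr2 or Fgfr3.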

How the data were processed

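The 4 arrays were single-colour Affymetrix Mouse430_2 arrays of 2 control and 2 mutant embryos. The deposited intensity values are linear MAS5 signals per probe set, made with GCOS and MAS5 per the submitters' processing notes, versions not given in the sources used here, and already scaled to 1 trimmed mean. The deposited ratio and fold values are GCRMA values of the authors relative to the control mean, kept per the file headers where called Present on at least 2 of 4 arrays and 2-fold different. The 64 array controls among 45101 probe sets were set aside. Tests covered the 28434 probe sets with a signal over the array's 40th percentile on 2 or more arrays. Symbols came from the platform annotation, updated by Entrez identifier for 99.4% of probe sets naming 1 gene. No genome build of the array is given in these sources.

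Log2 signals were fitted with limma 3.58.1 in R 4.3.3 (lmFit and eBayes with an intensity trend, mutant minus control, two-sided, Benjamini-Hochberg over all probe sets or all genes, threshold 0.05). All adjusted p-values are from limma, and ± values are standard errors. Member values are from the fit over probe sets. Counts, medians and values of other genes are from the fit over genes, in which the brightest probe set by mean log2 signal stands for its gene, and values of their further probe sets are from the fit over probe sets. Folds of probe sets below background on both arrays of a group are lower bounds, with the dim group at the higher of percentile and signal. The number of arrays limits the precision. On simulated data with 28434 probe sets, 81 of 100 changed 2-fold and 86 of 100 changed 4-fold were recovered, and 7.73% of calls were unchanged probe sets. Only these probe sets were changed in the simulation, whereas 39.4% were called in the data, so its rates do not carry over to the reported calls.

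The members and lists were chosen with earlier results of these data known. Named were all members, up to 4 called genes a list by size of moderated t, and Egr1, Kl, Spred3, Fgf7, Fgf10 and markers of cell types, which were picked after their values were seen. Scans of the arrays were on 1 day and 1 scanner, with 1 fluidics module for each array. Same-numbered arrays of both groups did not deviate together (correlation of deviations 0.0145), so samples were not treated as pairs. Alternatives covered scaling, filter, offset, variance model, a block for the sample number and each array left out.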

Additional observations from a re-analysis of the deposited data

How the results depend on the processing

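The 7 higher calls of FGF probe sets were 6 to 8 and the 4 higher genes stayed 4 under the 12 or 13 alternatives; the lower calls depended on the processing. Over 13 probe sets and 153 refits, 141 kept direction and side of the threshold, 6 lost a call, 6 gained one and 0 turned sign. Lower probe sets were 1 without the filter on dim signals and 1 without the intensity trend, 3 with median centring, and 0 to 2 with 1 array left out. Lower genes were 1 without the filter, 0 without the intensity trend, 1 with all tested probe sets of a gene averaged, and 0 to 1 with 1 array left out. Median centring moved the median of all genes from -0.06 to -0.17, and Fgfr2 1420847_a_at then had -0.52 and Fgfr3 1421841_at -0.41. Fgf22 1450205_at passed with median centring, with log2(signal + 16) (1.02), with the replicate block and without control 2. With the replicate block the lower probe sets stayed 2 and the higher genes 4; the numbers do not pair the embryos. The fitted rise of Fgf9 1438718_at ranged from 2.82 to 5.14, and its lowest value came from log2(signal + 16). The cause of these moves was not tested. Signals near the 40th percentile limit what can be said of Fgf18, Fgf22 and the dim Fgf9 set.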
